A study of Mus musculus with 18 samples.

Results

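The genes described here encode products of goblet cells, the mucus-secreting cells of the intestinal epithelium, and they were followed across mouse small intestinal crypt cells sorted by a fluorescent reporter. The members are Muc2, Galnt12, Tff3, Agr2, Clca1, Zg16, Spink4 and Retnlb, 8 of the 19938 genes that the array names. They were chosen by name, and each is measured by exactly 1 probe set, so no choice between probe sets was needed.

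Goblet cells build a gel around the polymeric mucin MUC2, which is folded and linked in the endoplasmic reticulum, decorated with O-linked glycans in the Golgi apparatus and packed into granules. Smaller secreted proteins, among them trefoil peptides, the metalloprotease CLCA1 and the lectin ZG16, are released with the mucin and shape the gel. Goblet cells arise in the crypt from secretory progenitors that depend on the transcription factor ATOH1, as do Paneth and enteroendocrine cells.

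All 6 arrays came from C57Bl6/J mice aged 4 months with the genotype FltpZV/+, that is, 1 reporter allele at Fltp (Flattop, gene symbol Cfap126), which encodes a protein linked to planar cell polarity. Single cells of small intestinal crypts were sorted by green fluorescence into 3 gates, reporter-negative, reporter-low and reporter-high, with 2 arrays a gate and RNA pooled from 2 animals on each array. There is no group without the reporter allele, and each gate is a fluorescence class and not a purified cell type. The study asked which secretory cells arise from reporter-positive crypt cells, and its title names the enteroendocrine and Paneth lineages. The goblet genes are products of another secretory lineage of the crypt.

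Values are log2 RMA values, a normalized array signal on which a difference of 1 is a doubling. The background level, 4.23, is the signal below which 95% of olfactory and related receptor genes lay. The share of genes above it ran from 61.4% to 65.6% on 5 arrays and was 69.6% on reporter-high replicate 2, and the 2 high arrays correlated least across genes (r = 0.946). Cfap126 itself read 5.39 and 4.79 in the negative gate, 5.16 and 6.13 in the low gate and 5.15 and 5.0 in the high gate, so the gates overlapped on the gene that carries the reporter. The 7 general markers of intestinal epithelium, such as Epcam and Vil1, lay above background on all 6 arrays, but not at an even level. Their mean log2 level was 9.63 and 9.71 in the negative gate, 9.31 and 9.32 in the low gate and 9.11 and 8.64 in the high gate. Precision is limited by the number of arrays.

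The goblet products did not move as a block. Clca1 was 4.12-fold lower in the low gate and 2.62-fold lower in the high gate than in the negative gate, and it was the only member that passed the test in either comparison. Zg16 was lower by a like amount without passing, Muc2, Tff3 and Agr2 differed by at most 0.60 from the negative gate on the log2 scale without passing, Spink4 and Galnt12 had their highest means in the high gate without passing, and Retnlb was at background on every array. A gene was called where limma's Benjamini-Hochberg adjusted p over all 19938 genes was under 0.05. Called members numbered 1 of 8 in low against negative, where 5.96% of all genes were called, 1 of 8 in high against negative, where 4.71% were called, and 0 of 8 in high against low by limma, where 4.91% were called and 2 members, Muc2 and Clca1, had an unadjusted p under 0.05. Clca1 was the called member each time and was lower, a direction that 2.54% of all genes took in low against negative and 3.35% in high against negative. In these pooled cells, fewer goblet cells in a gate and less of a transcript per goblet cell cannot be told apart. The comparisons share arrays: both contrasts with the negative gate use the same 2 negative arrays, and high against low uses the arrays of both positive gates again.

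**Figure D1:**
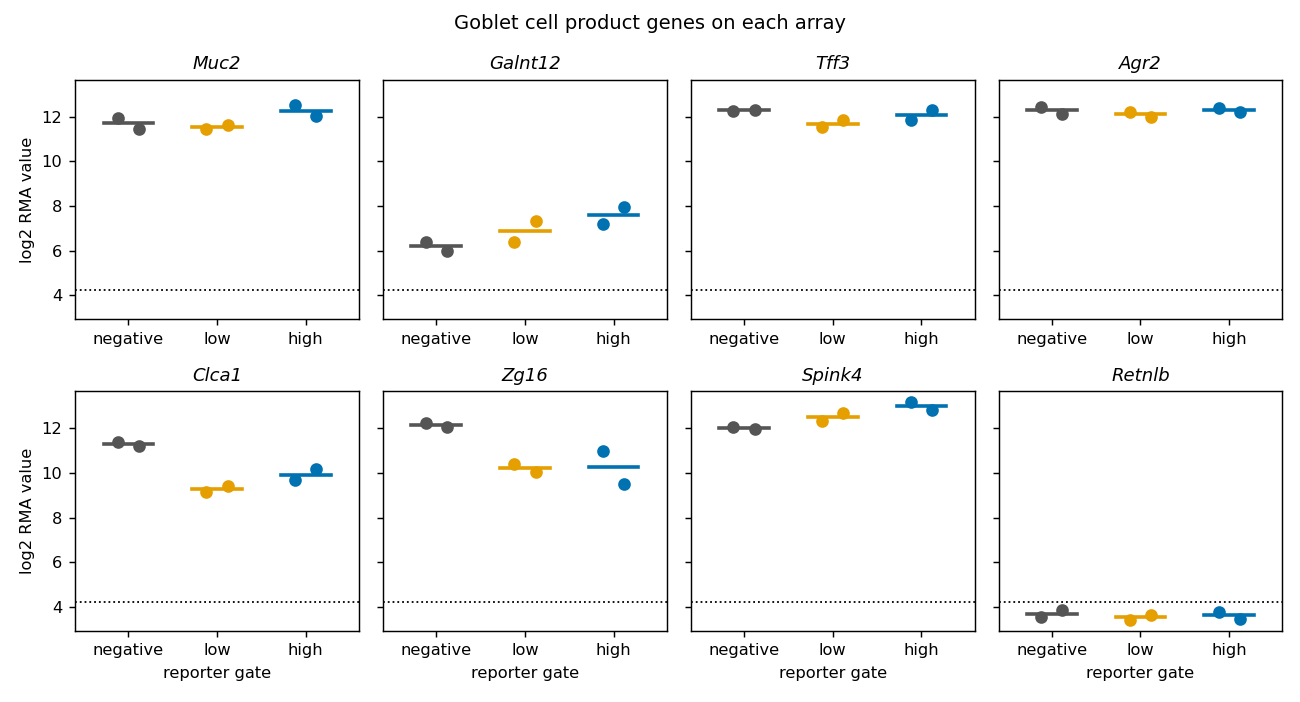
Log2 RMA value (vertical axis) of each goblet cell product gene in the negative, low and high reporter gates; each point is 1 array, bars are the mean of 2 arrays and the dotted line is the background level of 4.23. Clca1 and Zg16 sit lower on all 4 reporter-positive arrays than on both negative arrays, while Retnlb stays under the dotted line on all 6.

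Muc2 encodes the gel-forming mucin that gives intestinal mucus its structure. It read 11.95 and 11.46 in the negative gate, 11.43 and 11.64 in the low gate and 12.53 and 12.01 in the high gate. Both high arrays were above all other arrays, and the negative and low gates overlapped. The low gate differed from the negative gate by -0.17 ± 0.26 on the log2 scale (SE, n = 2 arrays a gate; 95% interval -0.80 to 0.46; limma adjusted p = 0.866). The high gate was above the low gate by 0.74 ± 0.26 (95% interval 0.11 to 1.37; limma adjusted p = 0.171) and above the negative gate by 0.57 ± 0.26 (95% interval -0.06 to 1.19; limma adjusted p = 0.265), and neither difference was called.

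Agr2 encodes a protein disulphide isomerase of the endoplasmic reticulum that is needed to make MUC2. It read 12.45 and 12.12 in the negative gate, 12.22 and 11.99 in the low gate and 12.37 and 12.19 in the high gate. All 3 gates overlapped, and the 6 arrays spanned from 11.99 to 12.45. Agr2 had the smallest span among the members above background. The difference was -0.00 ± 0.21 between high and negative (95% interval -0.50 to 0.49; limma adjusted p = 0.99) and -0.18 ± 0.21 between low and negative (95% interval -0.68 to 0.31; limma adjusted p = 0.796).

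Of the 8 members, 2 had an upstream sequence in the RefSeq promoter table used here (build GRCm38.p6), Muc2 and Agr2. The 250 bases before each transcription start are given because these are the gel mucin and the enzyme that folds it, and because Atoh1, the factor at the head of the secretory lineage, differed between the gates. Muc2 lies on the plus strand at chr7:141690090-141690339 and Agr2 on the plus strand at chr12:35992675-35992924. Capitals mark matches, searched on both strands. The motifs are CAGCTG (an E-box of the kind that ATOH1 binds), TTTATG (a form of the motif of the intestinal CDX factors) and TATAAA (the letters of a TATA box).
Muc2: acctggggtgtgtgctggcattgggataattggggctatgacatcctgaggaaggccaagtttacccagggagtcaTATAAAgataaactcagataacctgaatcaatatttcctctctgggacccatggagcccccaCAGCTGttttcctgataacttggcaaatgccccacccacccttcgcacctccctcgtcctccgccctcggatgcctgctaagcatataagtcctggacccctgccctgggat
Agr2: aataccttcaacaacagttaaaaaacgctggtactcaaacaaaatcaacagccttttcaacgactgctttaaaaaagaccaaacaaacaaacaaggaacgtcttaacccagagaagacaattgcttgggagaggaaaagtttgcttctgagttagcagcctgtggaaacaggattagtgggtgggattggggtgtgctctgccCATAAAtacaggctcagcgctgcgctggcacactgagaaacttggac
The Muc2 window holds CAGCTG at 112 to 107 bases before the start and TATAAA at 174 to 169 bases before it. Whether this TATAAA match acts as a core promoter box was not tested. The Agr2 window holds TTTATG on the opposite strand at 47 to 42 bases before the start. The marked matches do not overlap each other. Such matches are common: of 32851 promoter windows of the same length, 13.0% hold CAGCTG, 10.8% hold TTTATG and 12.4% hold TATAAA on either strand, so the letters describe these windows and show no binding.

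Galnt12 encodes an enzyme that starts O-glycan chains on mucin serines and threonines. It read 6.40 and 5.97 in the negative gate, 6.40 and 7.33 in the low gate and 7.19 and 7.95 in the high gate. Both high arrays were above both negative arrays, and the low gate overlapped the high gate and reached down to the upper negative array. The high gate was above the negative gate by 1.39 ± 0.38 (95% interval 0.47 to 2.30; limma adjusted p = 0.0994), a difference of 2.62-fold that did not pass. The low gate was above the negative gate by 0.69 ± 0.38 (limma adjusted p = 0.443), and the high gate above the low gate by 0.70 ± 0.38 (limma adjusted p = 0.316).

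Tff3 encodes the trefoil peptide of intestinal goblet cells, which is secreted with the mucin and takes part in epithelial repair. It read 12.25 and 12.31 in the negative gate, 11.54 and 11.83 in the low gate and 11.86 and 12.32 in the high gate. Both low arrays were below all other arrays, and the high gate spread across the negative values. The low gate was below the negative gate by -0.60 ± 0.23 (95% interval -1.13 to -0.06; limma adjusted p = 0.214). The high gate differed from the negative gate by -0.19 ± 0.23 (limma adjusted p = 0.633).

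Clca1 encodes a secreted metalloprotease that is abundant in goblet cell mucus and cuts MUC2. It read 11.41 and 11.23 in the negative gate, 9.13 and 9.41 in the low gate and 9.67 and 10.18 in the high gate. The gates were separate, with both negative arrays highest, both low arrays lowest and the high arrays between them. Clca1 fell by 2.04 on the log2 scale in the low gate (SE 0.24, 95% interval -2.61 to -1.48; limma adjusted p = 0.00606). In the high gate it fell by 1.39 (SE 0.24, 95% interval -1.96 to -0.82; limma adjusted p = 0.0281). The high gate was above the low gate by 0.65 ± 0.24 (95% interval 0.09 to 1.22; limma adjusted p = 0.177), so the order of the positive gates did not pass the test. The direction held under all 12 alternatives in both comparisons. The low-gate call was lost without negative replicate 1 (adjusted p = 0.0725) and without negative replicate 2 (adjusted p = 0.0546), and the high-gate call was lost without either (0.193 and 0.157), with only the negative and high arrays in the fit (0.0525) and after quantile normalization (0.111, change -1.03).

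Zg16 encodes a lectin that binds the walls of Gram-positive bacteria and keeps them away from the epithelium. It read 12.25 and 12.04 in the negative gate, 10.38 and 10.03 in the low gate and 10.99 and 9.52 in the high gate. All 4 reporter-positive arrays were below both negative arrays, and the widely spread high pair (SD 1.04) enclosed the low pair (SD 0.25). The low gate was below the negative gate by -1.94 ± 0.45 (95% interval -3.00 to -0.87; limma adjusted p = 0.0555) and the high gate by -1.89 ± 0.45 (95% interval -2.95 to -0.82; limma adjusted p = 0.067). Both differences missed the threshold of 0.05. Zg16 passed in low against negative under 5 of 12 alternatives and in high against negative under 4 of 12; the latter change was -2.62 without high replicate 1 (limma adjusted p = 0.0121) and -1.15 without high replicate 2 (limma adjusted p = 0.0651).

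Spink4 encodes a small secreted protein of the Kazal protease inhibitor family. It read 12.07 and 11.99 in the negative gate, 12.32 and 12.67 in the low gate and 13.17 and 12.81 in the high gate. The 3 gates were separate and stood in the order of the reporter. The high gate was above the negative gate by 0.96 ± 0.22 (95% interval 0.44 to 1.48; limma adjusted p = 0.0608), the low gate above the negative gate by 0.46 ± 0.22 (limma adjusted p = 0.339) and the high gate above the low gate by 0.49 ± 0.22 (limma adjusted p = 0.24). Neighbouring gates therefore did not differ by the test. The high against negative difference passed under 2 of 12 alternatives, a trended robust prior (adjusted p = 0.0477) and quantile normalization (0.0487).

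Retnlb encodes resistin-like beta, a goblet cell product that is induced by worms and bacteria and is better known from the colon. It read 3.54 and 3.84 in the negative gate, 3.41 and 3.65 in the low gate and 3.75 and 3.47 in the high gate. No array was above background, so no level and no fold can be given.

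Separation of 2 arrays from 2 others is common in these data, and it was read only as a description. The gates did not overlap for 5 of 8 members in low against negative (2 higher and 3 lower), where the same held for 51.5% of all genes. The count was 5 of 8 in high against negative (3 higher and 2 lower; 55.2% of all genes) and 4 of 8 in high against low (all 4 higher; 55.8% of all genes). The median change of the 8 members was -0.18 for low against negative, beside -0.03 over all genes. It was -0.04 for high against negative, beside 0.10, and 0.45 for high against low, beside 0.13.

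**Figure D2:**
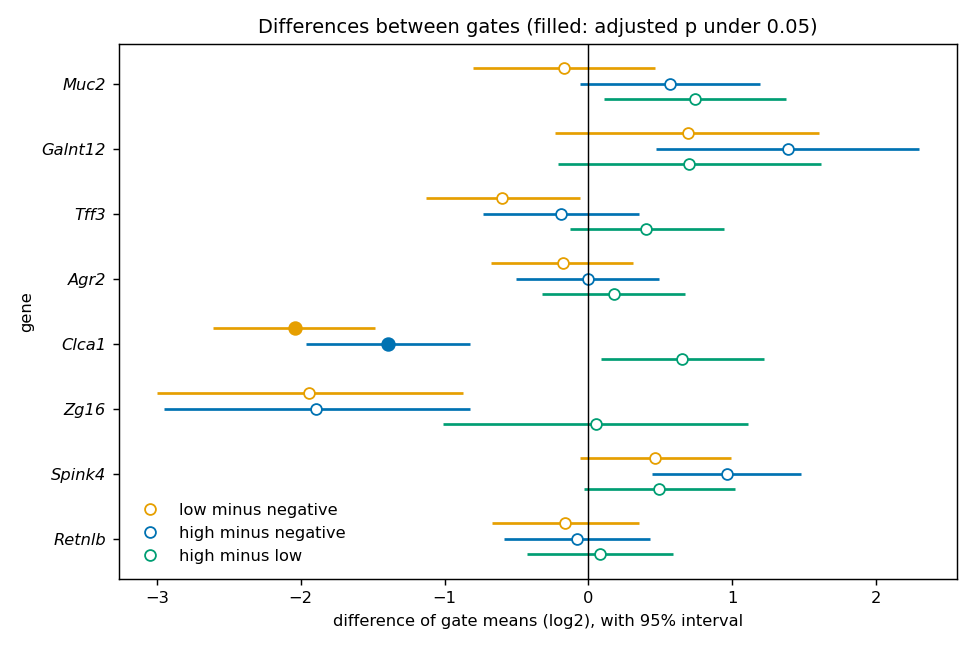
Difference of gate means on the log2 scale (horizontal axis) with its 95% interval for each goblet cell product gene, in low minus negative, high minus negative and high minus low; filled points passed limma's adjusted p under 0.05. Clca1 is filled at -2.04 and -1.39 and Zg16 lies at -1.94 and -1.89 with wider intervals.

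Most members have neighbours of their own families, but Spink4, Zg16 and Galnt12 have no gene of the lists used here near them. In the order of protein-coding genes of GRCm38.p6, Muc2 stands between Muc6 and Muc5ac with Muc5b beyond, Tff3 beside Tff2 and Tff1, Agr2 beside Agr3, Retnlb beside Retnla and Retnlg, and Clca1 in a run with Clca3a1, Clca3a2, Clca3b, Clca4b, Clca4a and Clca2. These relatives belong to a list of 22 other mucins, trefoil factors and family relatives, all measured. In low against negative 1 was called higher and 4 lower, beside 3.42% higher and 2.54% lower over all genes. In high against negative 0 were called higher by limma and 1 lower, beside 1.36% higher and 3.35% lower over all genes. At an unadjusted p under 0.05, 3 were higher and 6 lower in that comparison. In high against low 0 were called higher and 2 lower, with 2 higher and 2 lower at an unadjusted p under 0.05, beside 1.01% higher and 3.89% lower over all genes.

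Of the 6 Clca relatives, Clca3a2 and Clca4b were called in the low gate and Clca3a2 in the high gate, all lower as Clca1 was. Clca3a2 read 7.71 and 7.98 in the negative gate, 5.53 and 6.14 in the low gate and 6.41 and 5.87 in the high gate. Both positive gates were below the negative gate on every array, and Clca3a2 fell by 2.01 in the low gate (SE 0.29; limma adjusted p = 0.0121) and fell by 1.70 in the high gate (SE 0.29; limma adjusted p = 0.0269). Clca4b fell by 1.35 in the low gate (SE 0.30; limma adjusted p = 0.0493) and differed by -0.75 ± 0.30 in the high gate (limma adjusted p = 0.202). The low-gate call of Clca4b was lost under 6 alternatives, quantile normalization among them. Clca3a1 differed by -1.13 ± 0.39 and -1.07 ± 0.39 and Clca3b by -1.16 ± 0.29 and -0.74 ± 0.29, with limma adjusted p from 0.074 to 0.207. Clca4a, at -0.26 ± 0.24 and -0.10 ± 0.24, differed least among the relatives above background, and Clca2 was at background on all arrays. Clca genes are close copies, and whether their probe sets read each other's transcripts was not tested.

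**Figure D3:**
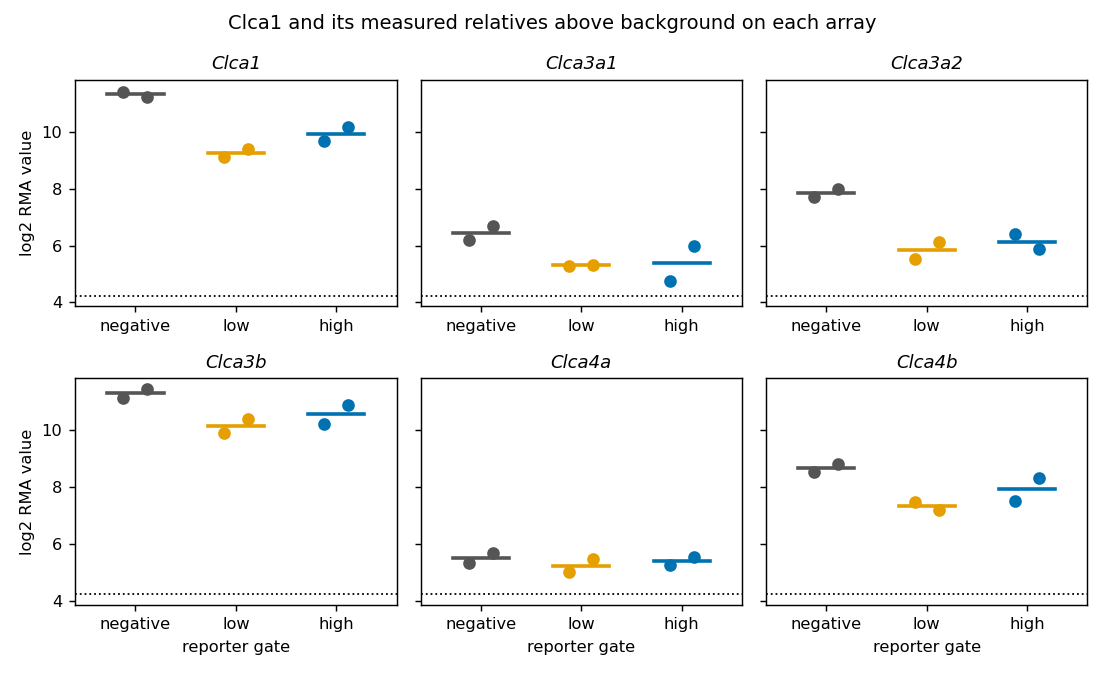
Log2 RMA value (vertical axis) of Clca1 and of its 5 relatives above background in the 3 reporter gates; points are arrays, bars are means of 2 arrays and the dotted line is background. The 2 negative arrays lie above the 4 reporter-positive arrays for Clca1, Clca3a1, Clca3a2, Clca3b and Clca4b, while the gates overlap for Clca4a.

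Among the other relatives, Agr3, the neighbour of Agr2 and a disulphide isomerase of the same family, read 3.42 and 3.25 in the negative gate, 7.02 and 5.69 in the low gate and 3.29 and 3.60 in the high gate. Only the low arrays were above background, so the low gate was higher by at least 2.13 on the log2 scale than either other gate (limma adjusted p = 0.00975 against negative and 0.012 against high). Agr2 was called in neither of these comparisons. Spink1, a trypsin inhibitor of the Spink family, fell by 1.91 in the low gate (SE 0.27; limma adjusted p = 0.0116) and differed by -1.18 ± 0.27 in the high gate (limma adjusted p = 0.0615), whereas Spink4 was above the negative gate in both. Muc3, a membrane mucin of the brush border, fell by 1.96 in the low gate (SE 0.43, limma adjusted p = 0.0494). The Muc3 call was lost under 6 of 12 alternatives, median centring among them. Muc3 is outside the naming rule and was chosen after its values were seen. Muc4, another membrane mucin, fell by 0.99 from the low to the high gate (SE 0.20; limma adjusted p = 0.0394), a call lost under 8 of 12 alternatives, the replicate block among them. Of the gel-forming mucins beside Muc2, Muc5b was at background on all 6 arrays, Muc6 on 4 and Muc5ac on 2.

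Enzymes that build mucin O-glycans divided in direction. Of 22 measured, 0 rose and 1 fell in low against negative by limma (5 higher and 2 lower at an unadjusted p under 0.05), 4 rose and 1 fell in high against negative, and 1 rose and 1 fell in high against low. Over all genes, the shares called higher and lower were 3.42% and 2.54% in the first comparison, 1.36% and 3.35% in the second and 1.01% and 3.89% in the last. Their median change was 0.10, 0.29 and 0.31, beside -0.03, 0.10 and 0.13 over all genes. Galnt5, an enzyme of the same initiating family as Galnt12, read 4.27 and 4.19 in the negative gate, 5.21 and 4.86 in the low gate and 5.85 and 6.21 in the high gate. It was highest in the high gate and close to background in the negative gate, and rose by 1.80 (SE 0.22; limma adjusted p = 0.0143). Galnt3, also of that family and chosen after its values were seen, rose by 1.03 (SE 0.19; limma adjusted p = 0.0331). The Galnt3 call was lost under 6 alternatives, array weights among them.

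C1galt1c1, the chaperone of the enzyme that extends the glycan core, rose by 1.45 in the high gate against the negative gate (SE 0.25; limma adjusted p = 0.0278) and by 1.34 against the low gate (SE 0.25; limma adjusted p = 0.0326). St3gal1, which caps the core with sialic acid, rose by 2.18 against the negative gate (SE 0.35; limma adjusted p = 0.0245). Chst4, a sulphotransferase for glycans, read 7.26 and 6.73 in the negative gate, 4.59 and 5.58 in the low gate and 4.50 and 5.01 in the high gate. It fell by 1.91 in the low gate (SE 0.37; limma adjusted p = 0.0328) and fell by 2.24 in the high gate (SE 0.37; limma adjusted p = 0.0263), so it stood with Clca1. Gcnt1, a branching enzyme, fell by 1.66 from the low to the high gate (SE 0.34; limma adjusted p = 0.0451), a call lost under 6 of 12 alternatives, the replicate block among them.

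Further goblet markers were also mixed in their calls. Of 16 listed, 14 were measured; 0 rose and 2 fell in low against negative by limma (1 higher and 4 lower at an unadjusted p under 0.05), 2 rose and 2 fell in high against negative, and 2 rose and 1 fell in high against low. The all-gene shares called higher and lower were again 3.42% and 2.54%, 1.36% and 3.35%, and 1.01% and 3.89%. At limma's unadjusted p under 0.05, 4 were higher and 4 lower in high against negative, and 8 higher and 1 lower in high against low. The median change of these markers was -0.47, 0.48 and 0.70, beside -0.03, 0.10 and 0.13 over all genes. Bcas1 fell by 1.53 in the low gate (SE 0.25; limma adjusted p = 0.0174) and fell by 1.16 in the high gate (SE 0.25; limma adjusted p = 0.0499), where the call was lost under 8 of 12 alternatives. Capn9, a calpain protease, fell by 1.51 in the low gate (SE 0.27; limma adjusted p = 0.0239). Scin, an actin-severing protein, read 8.23 and 7.30 in the negative gate, 7.27 and 7.39 in the low gate and 5.57 and 4.47 in the high gate. Only the high gate stood apart, and it fell by 2.75 against the negative gate (SE 0.43; limma adjusted p = 0.0223) and fell by 2.31 against the low gate (SE 0.43; limma adjusted p = 0.032).

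Sytl2, a synaptotagmin-like protein of vesicle traffic, rose by 2.32 in the high gate against the negative gate (SE 0.32; limma adjusted p = 0.0175). Ttc39a rose by 1.36 against the negative gate (SE 0.18; limma adjusted p = 0.0164) and by 1.02 against the low gate (SE 0.18; limma adjusted p = 0.0252). Lrrc26, an auxiliary subunit of a potassium channel of secretory epithelia, read 8.08 and 7.70 in the negative gate, 6.70 and 7.75 in the low gate and 9.55 and 9.33 in the high gate. It was highest on both high arrays and rose by 2.22 against the low gate (SE 0.35; limma adjusted p = 0.0188).

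Transcription factors of the secretory and goblet programme rose in the high gate where they were called. Of 10 measured, 2 rose in the high gate against the negative gate and 4 against the low gate, and 0 were called lower in either by limma, with 1 and 0 lower at an unadjusted p under 0.05. Of all genes, 1.36% were called higher and 3.35% lower in the first of these comparisons, and 1.01% and 3.89% in the second. In low against negative 0 were called by limma, with 3 higher and 2 lower at an unadjusted p under 0.05. Atoh1 read 8.31 and 8.54 in the negative gate, 7.01 and 8.0 in the low gate and 10.38 and 10.80 in the high gate. The gates were separate, with the low gate lowest and the high gate highest. Atoh1 rose by 2.16 in the high gate against the negative gate (SE 0.34; limma adjusted p = 0.0237) and by 3.09 against the low gate (SE 0.34; limma adjusted p = 0.00512), and was -0.93 ± 0.34 in low against negative (limma adjusted p = 0.205).

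Foxa3, a forkhead factor, rose by 1.46 against the negative gate (SE 0.18; limma adjusted p = 0.0155) and by 1.15 against the low gate (SE 0.18; limma adjusted p = 0.0185). Creb3l4, a membrane-bound factor of secretory cells, rose by 2.20 from the low to the high gate (SE 0.29; limma adjusted p = 0.00933). Klf4, which is needed for goblet cell maturation in the colon, rose by 1.13 from the low to the high gate (SE 0.23; limma adjusted p = 0.0463). The Klf4 call was lost under 7 alternatives, median centring and array weights among them. Spdef, which drives goblet and Paneth maturation, read 7.68 and 7.99 in the negative gate, 7.08 and 7.76 in the low gate and 9.34 and 8.06 in the high gate. The high arrays were the highest but far apart, and the difference from the negative gate was 0.87 ± 0.43 (limma adjusted p = 0.294).

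Partners of mucus protein folding gave 3 of 12 called higher and 0 lower by limma in high against negative (1 lower at an unadjusted p under 0.05), 2 higher and 0 lower in high against low (4 higher and 0 lower unadjusted), and 0 in low against negative (1 higher and 1 lower unadjusted). The shares of all genes called higher were 1.36%, 1.01% and 3.42% in that order, and those called lower 3.35%, 3.89% and 2.54%. Ern2, the stress sensor IRE1-beta of mucous epithelia, read 7.47 and 7.55 in the negative gate, 7.41 and 7.90 in the low gate and 10.14 and 9.23 in the high gate. It rose by 2.18 against the negative gate (SE 0.33; limma adjusted p = 0.0209) and by 2.04 against the low gate (SE 0.33; limma adjusted p = 0.0201). Qsox1, a disulphide-forming oxidase, rose by 2.35 and 1.60 in the same contrasts (SE 0.31; limma adjusted p = 0.0169 and 0.0374). Fkbp11, a folding chaperone of secretory cells, rose by 1.91 against the negative gate (SE 0.32; limma adjusted p = 0.0269). Agr2 was called in neither contrast, and the 4 disulphide isomerase genes with Pdia symbols on the list were not called in high against negative, at -0.14 ± 0.22 for Pdia3, -0.87 ± 0.20 for Pdia4, 0.59 ± 0.37 for Pdia5 and 0.22 ± 0.33 for Pdia6 (limma adjusted p = 0.725, 0.0634, 0.387 and 0.711).

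**Figure D4:**
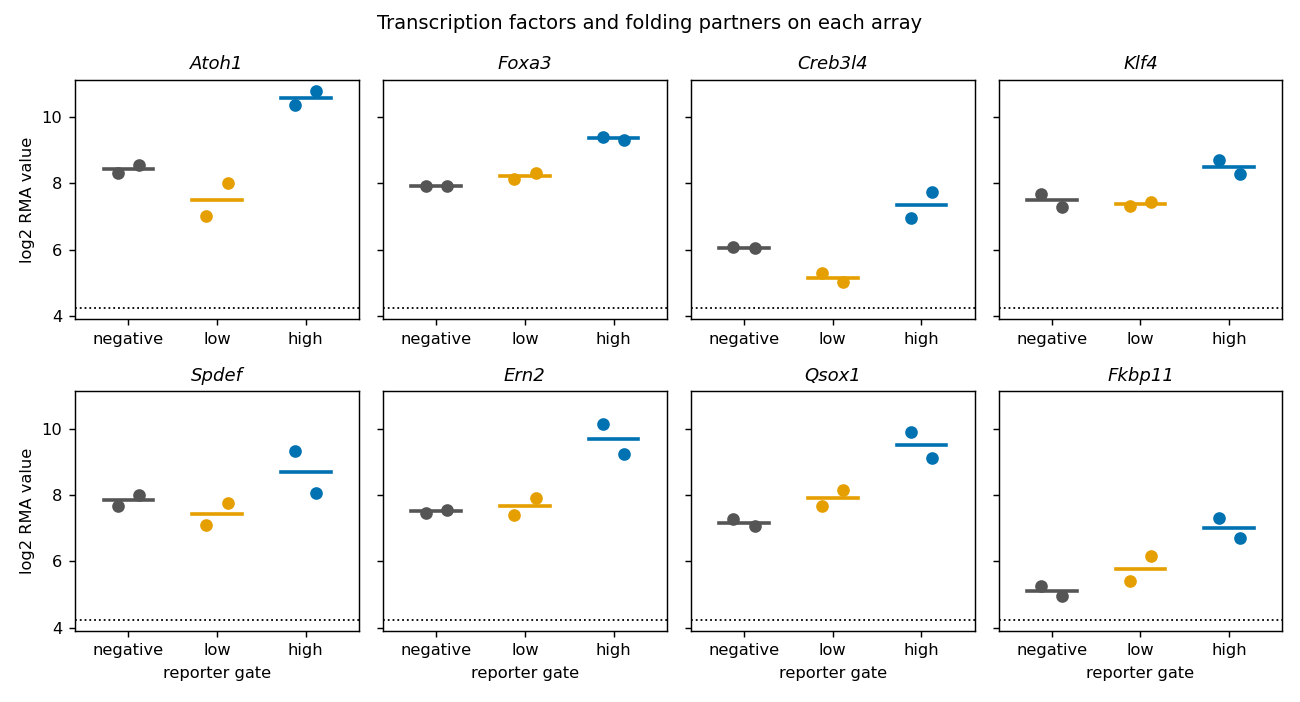
Log2 RMA value (vertical axis) of 5 goblet transcription factors and 3 folding partners in the 3 reporter gates; points are arrays, bars are means of 2 arrays and the dotted line is background. For each gene drawn, both high arrays lie above the negative and low arrays, at 10.38 and 10.80 for Atoh1. The Spdef high arrays are far apart. The 8 genes are a selection from lists of 10 factors and 12 partners. Genes called higher in the high gate are among them, so the shared pattern partly follows from that choice. Elf3 and Pdia4, not drawn, were below the negative gate by -1.05 ± 0.33 and -0.87 ± 0.20 in the high gate. Of all genes, 55.2% kept the high arrays apart from the negative arrays, in either direction, and 55.8% from the low arrays.

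**Figure D5:**
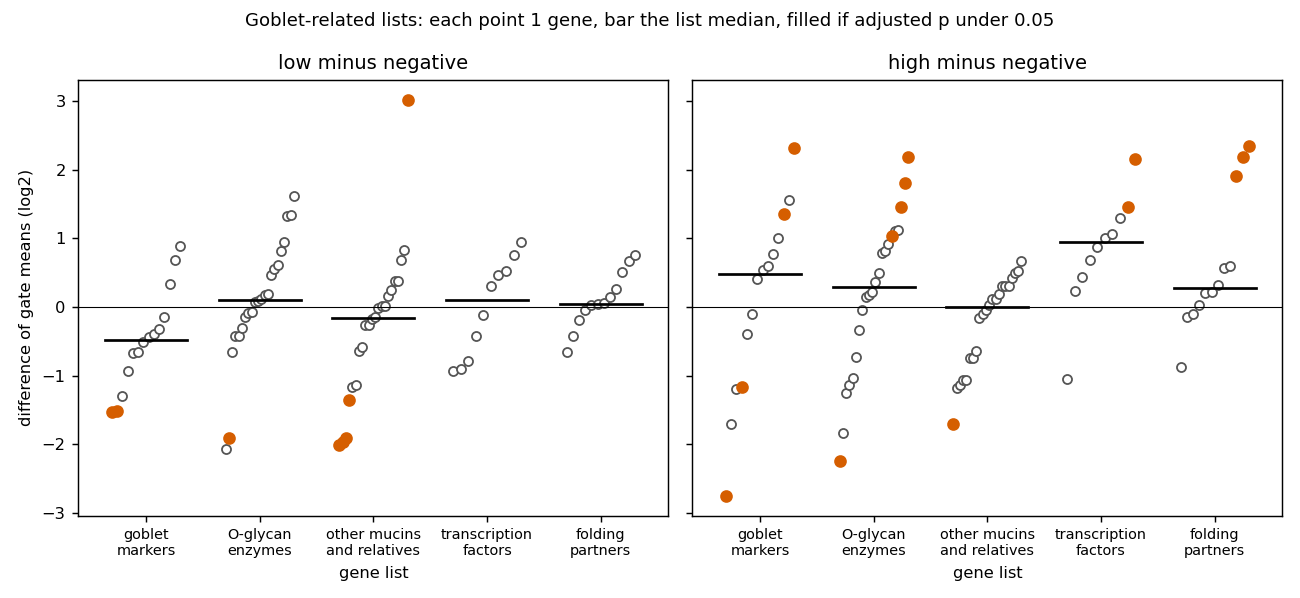
Difference of gate means on the log2 scale (vertical axis) for each measured gene of 5 goblet-related lists, in low minus negative (left) and high minus negative (right); filled points passed limma's adjusted p under 0.05 and bars are list medians. Filled points lie on both sides of 0 for markers and O-glycan enzymes in the high gate, and only above 0 for transcription factors and folding partners, with medians of 0.94 and 0.27; Agr3 is drawn at its fitted change.

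These calls rest on few arrays. Across the 5 goblet-related lists, the comparison of low with negative called 8 genes, that of high with negative 15 and that of high with low 13. Without negative replicate 1, 0 of the 8 and 0 of the 15 passed limma's threshold, and the same counts held without negative replicate 2; all 8 and all 15 kept their direction and an unadjusted p under 0.05, with adjusted p from 0.051 to 0.265 and from 0.108 to 0.258. Over all genes, 1188 were called in low against negative and 187 and 197 without a negative array, and 939 in high against negative and 15 and 13 without one. Without low replicate 1 or 2, 3 and 3 of the 8 remained called in low against negative, and 3 and 4 of the 13 in high against low. Without high replicate 1 or 2, 13 and 9 of the 15 remained called in high against negative and 10 and 8 of the 13 in high against low. With only the gates compared in the fit, 12 of the 15 and 5 of the 13 remained called (Scin, C1galt1c1, Agr3, Atoh1 and Creb3l4 of the 13), and with array weights 12 of the 15 and 7 of the 13. Agr3 and Atoh1 kept their calls in high against low under each alternative run.

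Markers of other cell types moved with the gates. Counts of called markers stand beside shares over all genes of 3.42% higher and 2.54% lower in the low gate and 1.36% higher and 3.35% lower in the high gate, both against the negative gate. Of 9 measured Paneth markers, 9 rose in both positive gates; their mean log2 level was 8.15 to 8.58 in the negative gate, 11.52 to 11.78 in the low gate and 12.36 to 12.53 in the high gate. Of 12 enteroendocrine markers, 12 rose in low cells and 1 rose in high cells, with mean levels of 4.96 to 5.30, 10.84 to 10.88 and 6.11 to 6.32. At limma's unadjusted p under 0.05, 9 of the 12 were higher and 0 lower in high against negative. Chgb, for example, read 7.28 and 6.52 in the negative gate and 9.57 and 8.15 in the high gate. Neurod1 and Rfx6, factors that define endocrine cells, were below background on all negative and high arrays. Of 11 leukocyte markers, 8 rose and 3 fell in the low gate and 10 fell in the high gate, with mean levels of 8.02 to 8.14, 8.54 to 8.65 and 5.92 to 6.12. Of the 7 general epithelial markers, 0 were called by limma in the low gate and 1 fell in the high gate. At limma's unadjusted p under 0.05, 1 was higher and 4 lower in the low gate, and 0 higher and 4 lower in the high gate. Their median change was -0.49 and -0.85, beside -0.03 and 0.10 over all genes.

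Proliferation markers fell with Clca1: 8 of 9 in the low gate, where 2.54% of all genes fell, and 6 of 9 in the high gate, where 3.35% fell, from mean levels of 7.78 to 7.83 in the negative gate to 6.00 to 6.03 and 6.48 to 6.61. Of 10 enterocyte markers, 2 fell in low cells and 4 fell in high cells, with mean levels of 10.11 to 10.59, 9.01 to 10.03 and 8.59 to 9.21. Of 7 stem cell markers, 1 fell in the low gate and 1 rose in the high gate, with mean levels of 7.62 to 7.76, 6.83 to 7.06 and 7.60 to 7.73. Of 9 tuft markers 0 were called by limma in either comparison (2 lower and 3 lower at an unadjusted p under 0.05), and their mean level was 5.26 to 5.45, 4.80 to 4.99 and 4.91 to 5.30. The part of these cell types in the values of the goblet genes was not tested.

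The pattern over the 6 arrays was also compared with that of other genes. Each member above background on all arrays was centred on its own mean, and the 7 profiles were averaged; the average was 0.33 and 0.09 in the negative gate, -0.44 and -0.23 in the low gate and 0.18 and 0.07 in the high gate. The profiles were not brought to an equal spread, so members with larger changes, such as Clca1 and Zg16, weighed more in the average. Of 3060 genes above background whose gate means span at least 1, the 6 most alike by Pearson's r were Spc24 (0.964), Cdc6 (0.952), Cks1b (0.95), Dnajc30 (0.946), Lmcd1 (0.944) and Mir342 (0.936). Spc24 is a kinetochore subunit, Cdc6 a replication licensing factor and Cks1b a partner of cyclin-dependent kinases. The list depends on the scaling, since 3 of the 6 names remained after median centring and 3 after quantile normalization.

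The genes nearest to single members, chosen after their values were seen, differed from member to member. The profile of Clca1 was followed most closely by Cdca3 (r = 0.998), a cell division gene, which fell by 2.31 in the low gate and fell by 1.49 in the high gate (limma adjusted p = 0.00606 and 0.0332). That of Zg16 was followed by Ccl25 (r = 0.998), a chemokine of the small intestinal epithelium, which fell by 2.18 in the low gate (limma adjusted p = 0.0498) and was -2.02 in the high gate (limma adjusted p = 0.0694). That of Spink4 was followed by Lgmn (r = 0.998), a lysosomal protease, which was 1.20 in the low gate (limma adjusted p = 0.145) and rose by 2.71 in the high gate (limma adjusted p = 0.0186). Klf4 was the fourth most alike to Muc2 (r = 0.954). These correlations are descriptions over 6 arrays that share gates.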

How the data were processed

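Gene expression in 6 sorted crypt samples was measured on a 1-colour Affymetrix mouse gene array. The authors deposited log2 values. The submitters' processing notes name RMA and Affymetrix Expression Console, version 1.3.0.187. RMA compresses differences near the floor and the ceiling of the signal. The other 12 samples of the series have blank columns and are not analysed here.

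Of 35556 probe sets, 21789 had 1 gene symbol in the platform annotation, 1621 had several and 12146 were not listed; 21698 matched a gene ID of GRCm38.p6. The probe set with the highest mean stood for each of 999 genes with more than 1, leaving 19938 genes. Background was set from 1207 odorant-type receptor genes (olfactory, trace amine and vomeronasal), at the 95th percentile of their means.

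All 6 arrays entered a single limma 3.58.1 fit (lmFit, eBayes, R 4.3.3) of 3 gate means, with 3 residual degrees of freedom, two-sided tests and Benjamini-Hochberg adjustment over all genes; errors of changes are limma standard errors. Nothing in the labels says whether gates were sorted from the same animals, so p-values measure only the spread between these arrays, which may be partly technical. Where every array of the dimmer gate was at background, a change is given as at least the difference from that level.

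The members and lists were chosen with earlier results of these data known. Besides the members, the text names up to 4 called genes with the smallest p of each goblet-related list in each comparison, the 6 genes most like the members' mean profile, and exceptions stated where they occur. The fit was also run on simulated data with independent normal noise. Such data hold no difference in quality between arrays, so that run does not bear on this limit of the real arrays. Alternatives covered the arrays in the fit, the prior, dropping dim genes, averaging probe sets, median centring, quantile normalization, array weights, a replicate block and the loss of each array in turn. Tables and plots used Python 3.11.15, pandas 2.3.3 and matplotlib 3.10.9.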

Additional observations from a re-analysis of the deposited data

How the results depend on the processing

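The limits are those of 2 arrays a gate: leaving out an array leaves 1 in its gate, whose spread is then assumed to equal that of the other gates, and signal near background or near the array's ceiling is compressed. In low against negative, called members numbered 1, and 2 (Zg16 added) with only the gates compared, with a trended robust prior, with only genes above background, with array weights and with the replicate block; leaving out 1 array gave 0 to 1. In high against negative they numbered 1, and 0 with only the gates compared, 3 with the trended robust prior, 2 with only genes above background and 2 with the replicate block; quantile normalization gave 1, but Spink4 in place of Clca1, and leaving out 1 array gave 0 to 2. In high against low the count was 0 by limma under every alternative run. Calls over all genes in low against negative were 1188, against 2150 with array weights and 187 to 565 with an array left out. In high against negative they were 939, against 561 with only the gates compared, 621 with quantile normalization, 620 with array weights and 13 to 1919 with an array left out. In high against low they were 978, against 499 with only the gates compared, 607 with array weights and 381 to 1739 with an array left out. Quantile normalization moved the split in high against negative from 272 higher and 667 lower to 324 and 297, and in high against low from 202 and 776 to 326 and 616. Median centring moved that of low against negative from 681 and 507 to 577 and 586. The cause of these shifts was not tested.

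Of 285 member results under alternatives, 256 kept their direction and side of the threshold, 11 gained a call, 6 lost a call and 12 turned, all 12 of them uncalled differences. Quantile normalization turned Agr2 in high against negative to 0.04 and Retnlb in high against low to -0.13. Retnlb is at background on every array, so its signs here are those of background signal. With an array left out, Muc2 in low against negative ranged from -0.42 to 0.08, Tff3 in high against negative from -0.42 to 0.04, Agr2 in high against negative from -0.17 to 0.16, Zg16 in high against low from -0.69 to 0.79, and Retnlb from -0.23 to 0.07 in high against negative and from -0.06 to 0.22 in high against low. Samples with the same replicate number hardly deviated together (r = 0.11 for negative and low, 0.11 for negative and high and 0.09 for low and high over 12891 genes), so the numbers were not taken as pairs. With the replicate block, Clca1 remained called in both comparisons, Zg16 was added to both, Gcnt1 and Muc4 lost their calls in high against low, and calls over all genes were 1298, 1065 and 965.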

Other observations

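The 2 negative arrays, which serve as the baseline of the contrasts above, differed strongly on several genes of the stomach surface. Gkn2, a gastrokine secreted by stomach mucous cells, read 8.79 on negative replicate 1 and 3.80 on negative replicate 2, a difference of 4.99 and rank 1 of 19938 genes by size; it read 6.23 and 4.53 in the low gate and 6.56 and 8.87 in the high gate. Tff2, the trefoil peptide of stomach neck cells, read 8.11 and 4.91 on the negative arrays (3.19, rank 4), Tff1, that of stomach surface cells, 8.96 and 5.97 (2.99, rank 7), Gkn1 8.44 and 6.30 (2.14, rank 22) and Muc5ac, the gel mucin of the stomach surface, 5.57 and 3.93 (1.64, rank 50). Tff3, the intestinal trefoil gene beside Tff1 and Tff2, read 12.25 and 12.31 on the same arrays. Other stomach genes differed less: Ctse by 1.14 (rank 217), Gkn3 by 0.83 (rank 646), Muc6 by 0.16 and the acid pump gene Atp4a, near background, by 0.00 (4.35 and 4.34). The genes were chosen after their values were seen and no test of the theme was made, and a difference between 2 arrays of 1 gate has no replicate.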
